A study of Mus musculus with 9 samples.

Results

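The oncofetal and liver tumor markers described here are 10 genes that were named in advance: Afp, H19, Gpc3, Fam83a, Cd44, Golm1, Dlk1, Mycn, Prom1 and Ly6d. They were found by gene name in the authors' table of 16755 genes from mouse liver, and 9 of the 10 were found. Dlk1, a ligand-like membrane protein of hepatoblasts, was matched to no name in the table and is not analysed here. The choice of these genes was made with their group means known, so all their values are a description and carry no test.

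Polyadenylated RNA was sequenced from liver of C57BL/6 mice (C57BL/6J in the study's methods) in 3 groups of 3 mice. All 3 groups carried floxed Scd2 alleles (Scd2f/f), and Scd2 encodes a stearoyl-CoA desaturase, an enzyme that makes monounsaturated fatty acids. Scd2f/f control liver came from untreated mice. Scd2f/f TAL, for tumor-adjacent liver, came from mice that, 2 weeks old, were injected with 10 mg/kg of the hepatic carcinogen DEN (diethylnitrosamine). They were then fed WAD (Western alcohol diet) from week 6, for 4 months by the labels, while the study's methods give a longer feeding. Scd2f/f;CC TAL came from mice on the same regimen that also carried a Cre recombinase under the Col1a1 promoter (Scd2f/f;Col1a1-Cre). This promoter is active in hepatic stellate cells (HSC) and portal fibroblasts, so deletion is aimed at these cells, and other liver cells that express Scd2 may keep it. The labels name the tissue only as liver, the study's results name it TAL and its methods for RNA sequencing name it NTL. The methods describe male mice, and the labels name DEN and WAD in the treatment protocol of the control mice too, although their treatment is given as untreated.

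The values are the authors' group means of upper-quartile normalized read counts, called normalized counts below. No value of a single mouse was analysed, so there is no error for any value and no test of any difference, and a mean that 1 mouse had set could not be recognised. A difference is therefore given as a quotient of means, and at least 2-fold was used as a limit of size. The comparison of Scd2f/f TAL with control liver and that of Scd2f/f;CC TAL with Scd2f/f TAL share the Scd2f/f TAL mean, so a high or low value there moves both quotients in opposite directions. Where 3 values follow each other, they are the means of control liver, of Scd2f/f TAL and of Scd2f/f;CC TAL, in this order. The upper quartile of the means over genes was 15.5, 15.5 and 15.4. The lowest mean was 0.0400, 0.0348 and 0.0349, and it was shared by 118, 107 and 151 genes. Scd2 itself had normalized counts of 2.46 in control liver, 6.47 in TAL of Scd2f/f mice and 1.87 in TAL of Scd2f/f;CC mice.

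Oncofetal genes are active in the embryonic liver, are silenced around birth and can be active again in regenerating or malignant hepatocytes. Afp, H19, Gpc3 and Dlk1 are classic examples, and alpha-fetoprotein and glypican-3 are used as markers of hepatocellular carcinoma (HCC) in serum and in tissue. Cd44 and Prom1 encode surface proteins by which stem-like or tumor-initiating liver cells are often sorted, but neither is restricted to such cells.

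In Scd2f/f TAL, 8 of the 9 markers had a higher mean than in control liver, against 53.7% of all genes. At least 2-fold higher were 6, namely Ly6d, Fam83a, Cd44, Gpc3, Golm1 and Afp. Of all genes in the table, 9.37% were at least 2-fold higher in this comparison. Mycn alone was at least 2-fold lower, against 4.69% of all genes. In Scd2f/f;CC TAL, 7 of the 9 had a lower mean than in Scd2f/f TAL, against 49.6% of all genes. At least 2-fold lower were 3, namely Ly6d, Fam83a and Gpc3, against 4.07% of all genes. None was at least 2-fold higher there, against 1.82%. Between Scd2f/f;CC TAL and control liver, Cd44 and H19 were at least 2-fold higher, against 6.41% of all genes, and Mycn was at least 2-fold lower, against 4.64%. Because the markers were chosen on these contrasts, nothing is read from the counts. When 1 was added to all means as a pseudocount, Afp, Gpc3 and Golm1 no longer passed 2-fold in Scd2f/f TAL over control liver, nor did Mycn in either TAL group over control liver, nor Gpc3 between the TAL groups, nor H19 in Scd2f/f;CC TAL over control liver. The median log2 quotient of the 9 markers was 1.09 for Scd2f/f TAL over control liver and -0.62 for Scd2f/f;CC TAL over Scd2f/f TAL, where the medians of all genes were 0.045 and 0.00. In this bulk tissue, fewer cells of a type and less RNA per cell cannot be told apart.

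**Figure D1:**
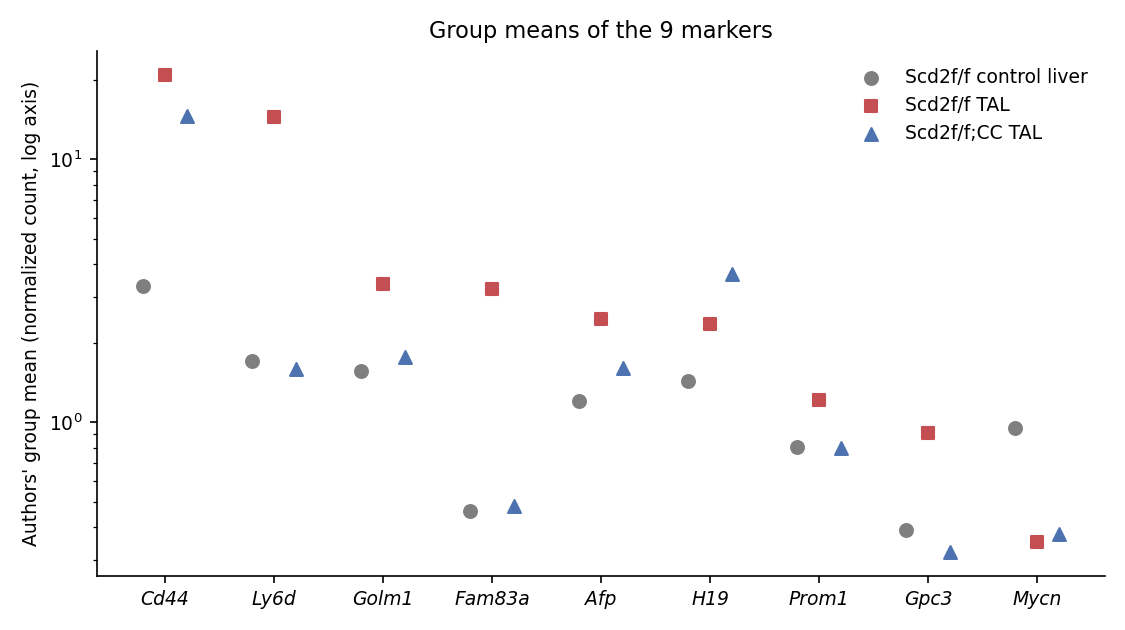
The authors' group mean of each of the 9 markers, as normalized counts on a log axis, in Scd2f/f control liver (grey circles), Scd2f/f TAL (red squares) and Scd2f/f;CC TAL (blue triangles). Each point is 1 mean with no error available. The Scd2f/f TAL mean is the highest of the 3 for 7 genes, while H19 is highest in Scd2f/f;CC TAL at 3.66 and Mycn in control liver at 0.954.

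Afp encodes alpha-fetoprotein, an albumin-like plasma protein of yolk sac and fetal liver. Its normalized count was 1.21 in control liver, 2.47 in TAL of Scd2f/f mice and 1.61 in TAL of Scd2f/f;CC mice, so that it was 2.04-fold higher with DEN and WAD and 1.53-fold lower in Scd2f/f;CC TAL than in Scd2f/f TAL. Afp stood just past the 2-fold limit, which it missed with a pseudocount of 0.1 (log2 quotient 0.97) and after centring on the median gene (0.996), and H19, at 1.64-fold, was the next below it. Afp lies at chr5:90490737-90508907 on the plus strand in GRCm38, between Alb and Afm. The mean of Afp in Scd2f/f;CC TAL lay above control liver by 31.7% of the difference between Scd2f/f TAL and control liver.

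Promoter windows from RefSeq on GRCm38.p6 were matched for 7 of the 10 genes, as 8 windows, 250 bases before to 50 bases after the RefSeq start. H19, Fam83a and Ly6d had no entry. The promoters of Afp, Gpc3 and Cd44 are shown up to the start of the gene in GENCODE because all 3 genes were higher in Scd2f/f TAL and lower in Scd2f/f;CC TAL than in Scd2f/f TAL, while their base composition differs. They are read 5′ to 3′ on the gene's strand, and capitals mark a TATA box (TATAAA). The Afp window is chr5:90490464-90490736 on the plus strand, that of Gpc3 is chrX:52613951-52614224 on the minus strand and that of Cd44 is chr2:102901666-102901915 on the minus strand.
Afp: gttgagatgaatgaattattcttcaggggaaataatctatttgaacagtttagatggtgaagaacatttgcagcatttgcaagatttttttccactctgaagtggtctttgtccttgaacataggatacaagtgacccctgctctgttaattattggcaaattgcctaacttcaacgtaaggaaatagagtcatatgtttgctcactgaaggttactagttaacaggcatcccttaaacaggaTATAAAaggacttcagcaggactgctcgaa
Gpc3: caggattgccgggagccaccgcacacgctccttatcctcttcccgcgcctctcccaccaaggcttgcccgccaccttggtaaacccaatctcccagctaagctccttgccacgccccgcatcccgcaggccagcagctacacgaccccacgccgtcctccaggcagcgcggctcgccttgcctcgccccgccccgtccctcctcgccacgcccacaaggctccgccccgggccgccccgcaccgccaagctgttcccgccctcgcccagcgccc
Cd44: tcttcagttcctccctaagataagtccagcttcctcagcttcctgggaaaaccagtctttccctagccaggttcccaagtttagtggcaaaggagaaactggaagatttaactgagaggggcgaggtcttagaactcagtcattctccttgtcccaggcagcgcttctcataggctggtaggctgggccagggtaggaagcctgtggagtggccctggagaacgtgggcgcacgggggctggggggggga

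In the Afp sequence, TATAAA lies 30 bases before the GENCODE start. Of 32851 promoter windows, 13.6% held TATAAA on either strand. The full windows of Gpc3 and Golm1 had 70.7% and 67.0% G and C and observed-to-expected CpG of 0.919 and 0.903, against medians of 52.7% and 0.384 over all windows. The Afp window had 40.0% G and C with 0.25 for CpG, and the Cd44 window had 58.0% with 0.246. The letters TGANTCA of AP-1 occurred in both Prom1 windows and in 7.81% of all, and TATAAA occurred in Golm1. The letters GGAATG of TEAD, CTTTGAT of TCF/LEF and CACGTG of the E-box, in 14.7%, 3.73% and 7.15% of all windows, occurred in none of the 8.

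H19 encodes an imprinted long noncoding RNA that is expressed from the maternal allele in fetal liver and muscle. Its normalized count was 1.44 in control liver, 2.36 in TAL of Scd2f/f mice and 3.66 in TAL of Scd2f/f;CC mice. H19 was the only one of the 9 markers whose mean was highest in Scd2f/f;CC TAL, 1.55-fold above Scd2f/f TAL and 2.54-fold above control liver. The gene lies at chr7:142575529-142578143 on the minus strand, beside Igf2, a fetal growth factor that shares an imprinting control region with it. Igf2 had normalized counts of 0.435, 0.290 and 0.366, all below 1. Control liver also held skeletal muscle transcripts. The 10 muscle markers, a list added after these transcripts had been seen, summed to 63.7 in control liver, 0.753 in TAL of Scd2f/f mice and 0.588 in TAL of Scd2f/f;CC mice, and Myh4, a myosin heavy chain, was at 11.5 in control liver and at the lowest mean in both TAL groups. The part of this signal in the H19 mean of control liver was not tested.

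Gpc3 encodes glypican-3, a heparan sulfate proteoglycan anchored to the cell surface that modulates growth factor signaling. Its normalized count was 0.390 in control liver, 0.915 in TAL of Scd2f/f mice and 0.322 in TAL of Scd2f/f;CC mice, below 1 in all 3 groups. It was 2.35-fold higher in Scd2f/f TAL than in control liver and 2.84-fold lower in Scd2f/f;CC TAL than in Scd2f/f TAL. Among genes whose highest mean was under 1, 14.7% were at least 2-fold higher in Scd2f/f TAL and 9.44% at least 2-fold lower in Scd2f/f;CC TAL. Gpc3 lies at chrX:52272426-52613950 on the minus strand. Nearness in both quotients was compared only for genes that were no marker and had a highest mean of at least 1. The 3 nearest to Gpc3 were the pseudogene Gm17538, with normalized counts of 0.628, 1.51 and 0.523, Casp12, a caspase, with 1.11, 2.54 and 0.933, and Col6a3, a collagen of fibroblasts, with 8.97, 20.5 and 7.58. The 8 markers of HSC and fibroblasts summed to 41.9, 79.2 and 36.4. The collagens Col1a1, with 4.69, 19.6 and 4.51, and Col1a2, with 6.65, 21.7 and 6.93, were the only ones at least 2-fold higher in Scd2f/f TAL than in control liver. Of the 8, 6 had a higher mean there, against 53.7% of all genes. Acta2, with 1.27, 1.20 and 0.388, and Des, with 4.25, 3.29 and 1.98, had a lower one. All 8 had a lower mean in Scd2f/f;CC TAL than in Scd2f/f TAL, against 49.6% of all genes. Their part in the Gpc3 result was not tested.

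Golm1 encodes a Golgi membrane protein that is released into serum and is raised in liver disease and HCC. Golm1 had a normalized count of 1.57 in control liver, 3.35 in TAL of Scd2f/f mice and 1.78 in TAL of Scd2f/f;CC mice. It was 2.13-fold higher with DEN and WAD, and at 1.88-fold lower in Scd2f/f;CC TAL than in Scd2f/f TAL it stood just short of the 2-fold limit that Gpc3 passed. In Scd2f/f;CC TAL its mean exceeded control liver by 11.8% of the difference seen in Scd2f/f TAL. The gene lies at chr13:59634626-59675811 on the minus strand.

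Cd44 encodes the receptor for hyaluronan, which leukocytes, activated HSC and tumor-initiating cells carry. Normalized counts of Cd44 were 3.30 in control liver, 21 in TAL of Scd2f/f mice and 14.6 in TAL of Scd2f/f;CC mice. Cd44 was 6.36-fold higher with DEN and WAD and only 1.44-fold lower in Scd2f/f;CC TAL than in Scd2f/f TAL, so that 63.8% of its difference from control liver was still present, the largest such share among the 6 genes at least 2-fold higher in Scd2f/f TAL. The gene lies at chr2:102811141-102901665 on the minus strand, with 9 transcripts in GENCODE M21, and the table gives 1 value for the gene.

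The genes nearest to Cd44 in both log2 quotients were Cybb, a subunit of the phagocyte oxidase, S100a4, a calcium-binding protein, and Itgb2, the beta chain of leukocyte integrins. Cybb had normalized counts of 5.11, 31.2 and 21.1. Itgb2 had 2.36, 14.1 and 9.29. Within a distance of 0.5 on the log2 scale of Cd44 lay 88 of 12340 genes compared. All 6 macrophage markers were at least 2-fold higher in Scd2f/f TAL than in control liver, against 9.37% of all genes, and their sum was 99.4, 381 and 311. The 7 markers of T and NK cells summed to 1.58, 5.20 and 3.01, and the 4 neutrophil markers found, of 5 listed, to 1.18, 4.74 and 3.68. The part of leukocytes in the Cd44 mean was not tested.

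Ly6d encodes a small membrane-anchored protein of the Ly6 family that is known from keratinocytes and early B lineage cells. Normalized counts of Ly6d were 1.71 in control liver, 14.5 in TAL of Scd2f/f mice and 1.59 in TAL of Scd2f/f;CC mice. Ly6d was 8.48-fold higher in Scd2f/f TAL than in control liver, and 53 of 16755 genes had a larger quotient. It was 9.12-fold lower in Scd2f/f;CC TAL than in Scd2f/f TAL, and 8 genes had a smaller quotient. The means in Scd2f/f;CC TAL and control liver lay within 1.08-fold of each other. Ly6d lies at chr15:74762056-74763620 on the minus strand and has 1 transcript with 744 exonic bases.

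The 6 markers of B and plasma cells summed to 11.5, 14.9 and 12.6, of which Igkc, an immunoglobulin light chain, made up 6.55, 9.53 and 8. The B cell genes Cd79a, with 0.211, 0.530 and 0.569, and Ms4a1, with 0.204, 0.460 and 0.474, were at least 2-fold higher in Scd2f/f TAL than in control liver, and their means in Scd2f/f;CC TAL were not lower than in Scd2f/f TAL. Of the 6 markers, 2 had a lower mean in Scd2f/f;CC TAL than in Scd2f/f TAL, against 49.6% of all genes. These were Igkc and Jchain, the latter with 4.05, 3.67 and 2.68. The part of B lineage cells in the Ly6d mean was not tested. Of 6 markers of squamous epithelium, 2 were found, with Krt5 at 0.0400, 0.0445 and 0.0349 and Sprr1a at 0.370, 0.355 and 0.0892. Of 12 other genes of the Ly6 family, 4 were found. Ly6a, a marker of progenitor and endothelial cells, had 1.24, 5.40 and 3.03, and Ly6e, which is widely expressed, had 53.9, 132 and 67.0. Ly6c2, of inflammatory monocytes, had 0.168, 0.557 and 0.522. These 3 were at least 2-fold higher in Scd2f/f TAL than in control liver. Ly6c1, of endothelial cells, was lower in both TAL groups than in control liver, with 0.265, 0.191 and 0.144. None of the 4 was at least 2-fold lower in Scd2f/f;CC TAL.

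Prom1 encodes prominin-1, a membrane glycoprotein of apical protrusions that cholangiocytes and progenitor cells carry. Prom1 had a normalized count of 0.809 in control liver, 1.22 in TAL of Scd2f/f mice and 0.801 in TAL of Scd2f/f;CC mice. The mean was 1.51-fold higher in Scd2f/f TAL and 1.52-fold lower in Scd2f/f;CC TAL, short of the 2-fold limit both times. The 6 cholangiocyte markers found, of 7 listed, summed to 59.0, 53.9 and 19.2, of which Spp1 made up 52.3, 45.1 and 14.8. In Scd2f/f TAL, 3 of them, Cftr, Sox9 and Krt19, had a higher mean than in control liver, where 53.7% of all genes were higher. The other 3, Krt7, Epcam and Spp1, had a lower one. Cftr, with 0.336, 0.799 and 0.131, was the only one at least 2-fold higher. In Scd2f/f;CC TAL, 5 of the 6, Cftr, Krt7, Krt19, Epcam and Spp1, were at least 2-fold lower than in Scd2f/f TAL, against 4.07% of all genes. The part of cholangiocytes in the Prom1 mean was not tested. The gene lies at chr5:43993620-44102032 on the minus strand, with 19 transcripts in GENCODE M21.

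**Figure D2:**
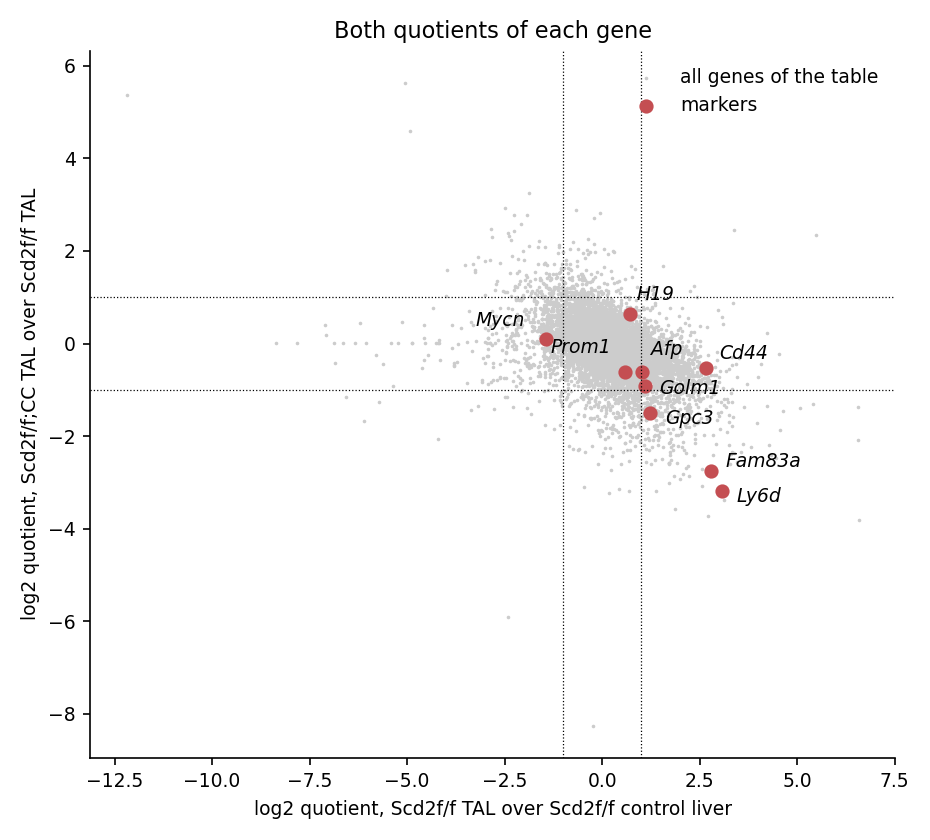
Log2 quotient of Scd2f/f TAL over control liver (horizontal) against log2 quotient of Scd2f/f;CC TAL over Scd2f/f TAL (vertical) for all 16755 genes (grey) and the 9 markers (red), with dotted lines at 2-fold. The axes share the Scd2f/f TAL mean, which enters them with opposite sign. Ly6d at 3.08 and -3.19 and Fam83a at 2.80 and -2.75 lie at the lower right, Cd44 at 2.67 and -0.52 lies to the right and Mycn at -1.44 and 0.10 to the left.

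Fam83a encodes a scaffold protein that has been linked to EGFR and RAF signaling in tumors. The group means of its normalized count were 0.462 in control liver, 3.22 in TAL of Scd2f/f mice and 0.479 in TAL of Scd2f/f;CC mice. It was 6.97-fold higher with DEN and WAD, with 83 genes of larger quotient, and 6.72-fold lower in Scd2f/f;CC TAL than in Scd2f/f TAL, with 19 genes of smaller quotient. Scd2f/f;CC TAL and control liver differed by 1.04-fold. Fam83a lies at chr15:57985419-58011009 on the plus strand, on the same chromosome as Ly6d.

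Of the 12340 genes compared, which were no marker and had a highest mean of at least 1, few had the pattern of Ly6d and Fam83a. Ephb2, a receptor tyrosine kinase, was the nearest to both, with normalized counts of 0.196, 1.46 and 0.220, and it was the only compared gene within 0.5 of Ly6d. Nr4a3, an orphan nuclear receptor, was the next nearest to both with 0.188, 1.11 and 0.169, and these 2 genes were the only compared ones within 0.5 of Fam83a. Next for Fam83a was Cx3cr1, the fractalkine receptor of monocytes and macrophages, with 0.256, 2.54 and 0.482, and next for Ly6d was the pseudogene Gm12435, with 0.302, 3.30 and 0.562. Other members of the Fam83 family had other patterns. Of 5 found, of 7 listed, Fam83d was at least 2-fold higher in Scd2f/f TAL with 0.0656, 0.207 and 0.167. Fam83c was at least 2-fold lower there with 0.232, 0.0794 and 0.163, and at least 2-fold higher in Scd2f/f;CC TAL than in Scd2f/f TAL. Fam83g had 1.81, 1.45 and 0.987, and Fam83h had 5.6, 6.19 and 6.93.

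Mycn encodes a transcription factor of the Myc family that is active in embryonic tissues and in progenitor-like liver tumors. Mycn had a normalized count of 0.954 in control liver, 0.352 in TAL of Scd2f/f mice and 0.377 in TAL of Scd2f/f;CC mice. It was the only marker with a lower mean in Scd2f/f TAL than in control liver, 2.71-fold, and it was 2.53-fold lower than in control liver in Scd2f/f;CC TAL. All 3 means were below 1. Mycn lies at chr12:12936093-12941914 on the minus strand. Myc had another pattern, with 6.84, 6.41 and 2.05, and was the only one of 10 genes of the Myc network at least 2-fold lower in Scd2f/f;CC TAL than in Scd2f/f TAL. Mlx, a partner in glucose-responsive transcription, had 21.5, 12.4 and 13.3, and Mxd1, an antagonist of Myc, had 3.27, 4.50 and 3.64. Mxd3, another antagonist, was the only one at least 2-fold higher in Scd2f/f TAL, with 0.0400, 0.154 and 0.188, where the first value is the lowest mean of control liver.

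For an order of the markers by level, the means were divided by exonic length. In Scd2f/f TAL, Ly6d had the highest length-scaled level of the 9, at 19.5 normalized counts per kb of exon, followed by Cd44 at 3.10, Fam83a at 1.02, H19 at 0.959, Golm1 at 0.757 and Afp at 0.733. Gpc3 at 0.340, Prom1 at 0.170 and Mycn at 0.107 were lowest. In Scd2f/f;CC TAL, Cd44 at 2.15 and Ly6d at 2.14 lay side by side ahead of H19 at 1.49, and in control liver Ly6d was ahead at 2.30, with H19 at 0.585 and Cd44 at 0.487 next. Fam83a, next after Cd44 in Scd2f/f TAL, was at 0.146 in control liver, next to Gpc3 at 0.145. With no spread between mice, it could not be said which neighbours in these orders differ.

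**Figure D3:**
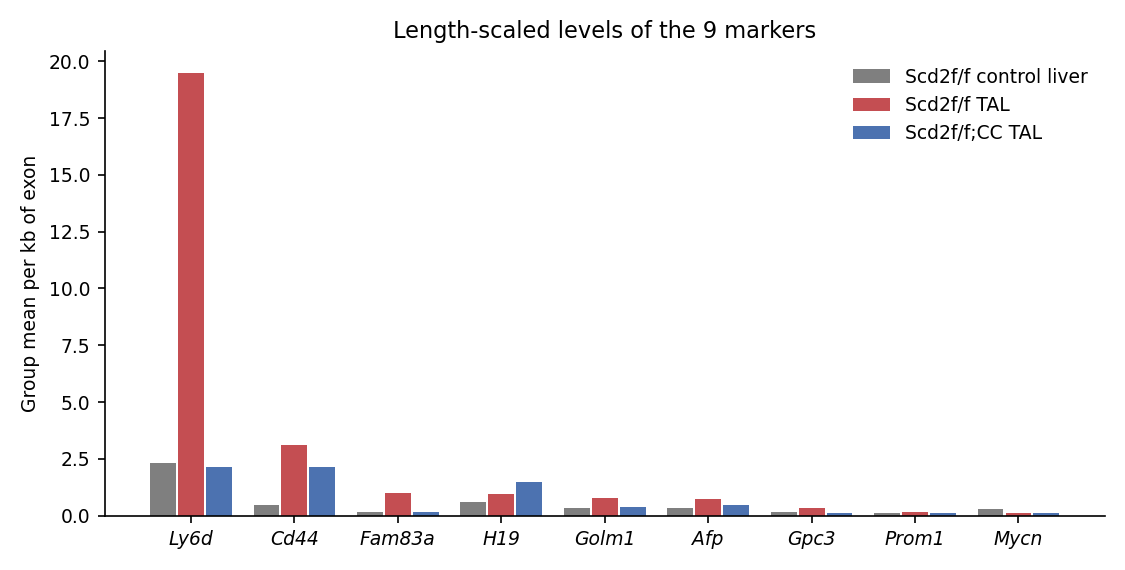
Group mean divided by exonic length, in normalized counts per kb of exon on a linear axis from 0, for the 9 markers in Scd2f/f control liver (grey), Scd2f/f TAL (red) and Scd2f/f;CC TAL (blue). Bars are single means without error. Ly6d reaches 19.5 in Scd2f/f TAL, above 2.30 and 2.14 in the other groups, and the next highest bar is Cd44 at 3.10.

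Regulators and relatives of the markers were described from 13 lists. Among 7 regulators of the Afp locus, none was at least 2-fold apart between Scd2f/f TAL and control liver or between the TAL groups. Zbtb20, a zinc finger repressor of Afp in adult liver, was the farthest from level, with normalized counts of 369 in control liver, 205 in TAL of Scd2f/f mice and 240 in TAL of Scd2f/f;CC mice. Nfia and Nfib, nuclear factor I proteins, had 42.5, 52.4 and 61.1 and 86.4, 93.3 and 110. Zhx2, a repressor of Afp and H19 after birth, had 12.3, 11.9 and 12.9. None of 10 hepatocyte factors and Afp activators was at least 2-fold apart either. Prox1, a homeobox factor, had 110, 58.1 and 92.0, Foxa3, a forkhead factor, had 40.6, 21.4 and 22.7, and Cebpb, an acute-phase factor, had 79.5, 66.2 and 49.9.

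None of 3 other genes of the albumin family was at least 2-fold apart in any comparison. Alb and Afm, which flank Afp, encode albumin and afamin, a carrier of vitamin E, and had 21300, 20900 and 22700 and 82.2, 69.8 and 86.6. Gc, the vitamin D carrier, had 2090, 2520 and 2250. Of 4 other genes that Zhx2 is known to regulate, 3 were at least 2-fold higher in Scd2f/f TAL, against 9.37% of all genes. This list too was chosen with earlier results known, and nothing is read from the count. Lpl, lipoprotein lipase, had 16.3, 83.6 and 66.2. Cyp2a4, a steroid hydroxylase with higher expression in females, had 0.348, 32.6 and 12.6, and was the only one at least 2-fold lower in Scd2f/f;CC TAL than in Scd2f/f TAL. Elovl3, a fatty acid elongase, had 13.7, 34.3 and 73.2, and was the only one at least 2-fold higher there. Mup20, a major urinary protein, had 8980, 7340 and 5500.

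Beside H19, 18 imprinted growth genes were all found. Mest, expressed from the paternal allele, was the only one at least 2-fold higher in Scd2f/f TAL, with 0.597, 1.66 and 1.19. Mirg, with 0.263, 0.0756 and 0.0913, and Phlda2, with 0.314, 0.112 and 0.0940, were at least 2-fold lower, both below 1. The noncoding RNAs of the Dlk1 locus, Meg3 and Rian, were highest in control liver, with 1.34, 0.763 and 0.575 and with 2.31, 1.19 and 0.779. These RNAs are known from skeletal muscle as well, whose markers were also highest in control liver, and its part was not tested. Of the 18 genes, 10 had a highest mean of at least 1. Between the TAL groups, 14 of the 18 had a lower mean in Scd2f/f;CC mice, against 49.6% of all genes, but none was at least 2-fold lower. Nothing is read from this count. Zim1, with 0.0656, 0.0465 and 0.105, was the only one at least 2-fold higher.

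Of 25 other oncofetal and HCC genes, 20 were found and 8 of them were at least 2-fold higher in Scd2f/f TAL than in control liver, against 9.37% of all genes, while none was at least 2-fold lower. Between the TAL groups, 7 were at least 2-fold lower in Scd2f/f;CC mice, against 4.07% of all genes, and none higher. The list was chosen with earlier results of these data known, and nothing is read from its counts. Lcn2, the acute-phase protein lipocalin-2, had normalized counts of 5.21, 41.8 and 14.1. Tspan8, a tetraspanin, had 0.679, 1.49 and 0.306, and Cd24a, a surface marker of progenitor cells, had 1.51, 3.44 and 0.838. Top2a, a topoisomerase of dividing cells, had 0.963, 3.88 and 2.33. The median log2 quotient of the 20 genes was 0.80 for Scd2f/f TAL over control liver and -0.53 for Scd2f/f;CC TAL over Scd2f/f TAL. Epcam and Krt19, which are also cholangiocyte markers, were nearly level between control liver and Scd2f/f TAL and lower in Scd2f/f;CC TAL, with 1.97, 1.82 and 0.50 and with 0.746, 0.751 and 0.204.

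**Figure D4:**
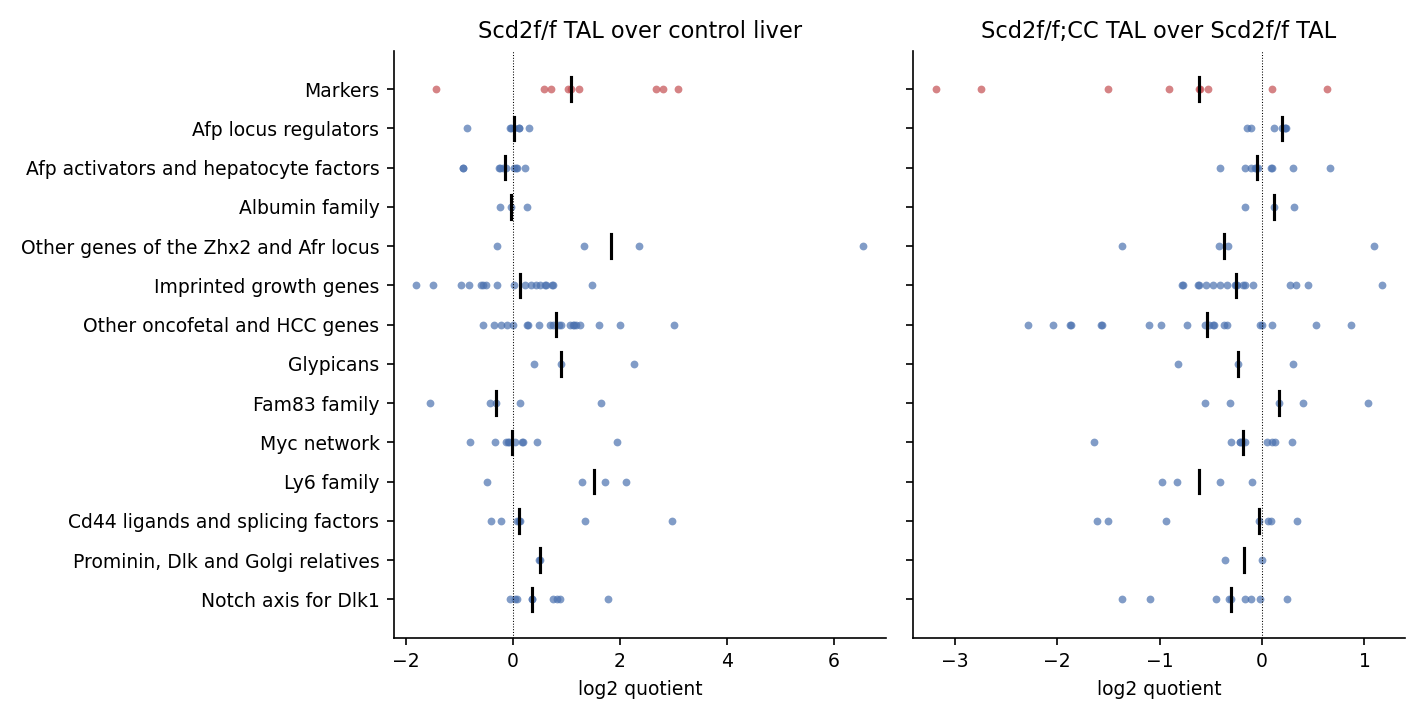
Log2 quotient of Scd2f/f TAL over control liver (left) and of Scd2f/f;CC TAL over Scd2f/f TAL (right) for the 9 markers (red) and the found genes of 13 lists (blue), with the median of each list as a black bar and a dotted line at 0. The marker medians are 1.09 and -0.62. Cyp2a4 is the rightmost blue point on the left.

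The surface receptors had relatives with other patterns. Of the 5 other glypicans listed, 3 were found, and Gpc1, with 4.36, 21.1 and 17.9, was at least 2-fold higher in Scd2f/f TAL. Gpc6 had 1.36, 2.53 and 1.43, near the pattern of Gpc3 but short of 2-fold, and Gpc4, the genomic neighbour of Gpc3, had 31.0, 41.0 and 50.7. Among 7 genes found for ligands, hyaluronan turnover and splicing of Cd44, of 10 listed, Hmmr, another hyaluronan receptor, which is linked to mitosis, had 0.191, 1.51 and 0.531. Lyve1, the hyaluronan receptor of sinusoidal and lymphatic endothelium, had 2.60, 6.60 and 3.44. These were the 2 genes at least 2-fold higher in Scd2f/f TAL. Spp1, osteopontin, a ligand of Cd44, had 52.3, 45.1 and 14.8 and with Hmmr was at least 2-fold lower in Scd2f/f;CC TAL than in Scd2f/f TAL. Casc4, a relative of Golm1, had 2.89, 4.12 and 3.21.

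Dlk1 is a noncanonical ligand of the Notch pathway, of which 9 genes were found, of 10 listed. Hes1, a Notch target, was the only one at least 2-fold higher in Scd2f/f TAL, with normalized counts of 2.69, 9.28 and 3.60. Hes1 and Hey1, another target with 0.269, 0.499 and 0.234, were at least 2-fold lower in Scd2f/f;CC TAL than in Scd2f/f TAL. The receptor Notch1 had 14.9, 26.5 and 23.6, and the ligand Jag1 had 3.88, 6.56 and 5.30.

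The 7 hepatocyte markers summed to 35330 in control liver, 30810 in TAL of Scd2f/f mice and 33408 in TAL of Scd2f/f;CC mice, of which Alb made up 21300, 20900 and 22700. In Scd2f/f TAL, 6 of the 7 had a lower mean than in control liver, against 45.8% of all genes, and Ttr a higher one. Tat, with 499, 181 and 305, was the only one at least 2-fold lower. The 6 endothelial markers summed to 105, 142 and 143. The summed mean of mesothelial markers, which mark the liver capsule, was highest in control liver. There the 4 found, of 5 listed, summed to 2.43, against 0.803 and 0.611 in the TAL groups. Wt1, with 0.323, 0.413 and 0.218, was instead highest in Scd2f/f TAL, and each of the 4 was below 1 in all groups. No marker was given as 0 in any group, since the table's lowest means are above 0.

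**Figure D5:**
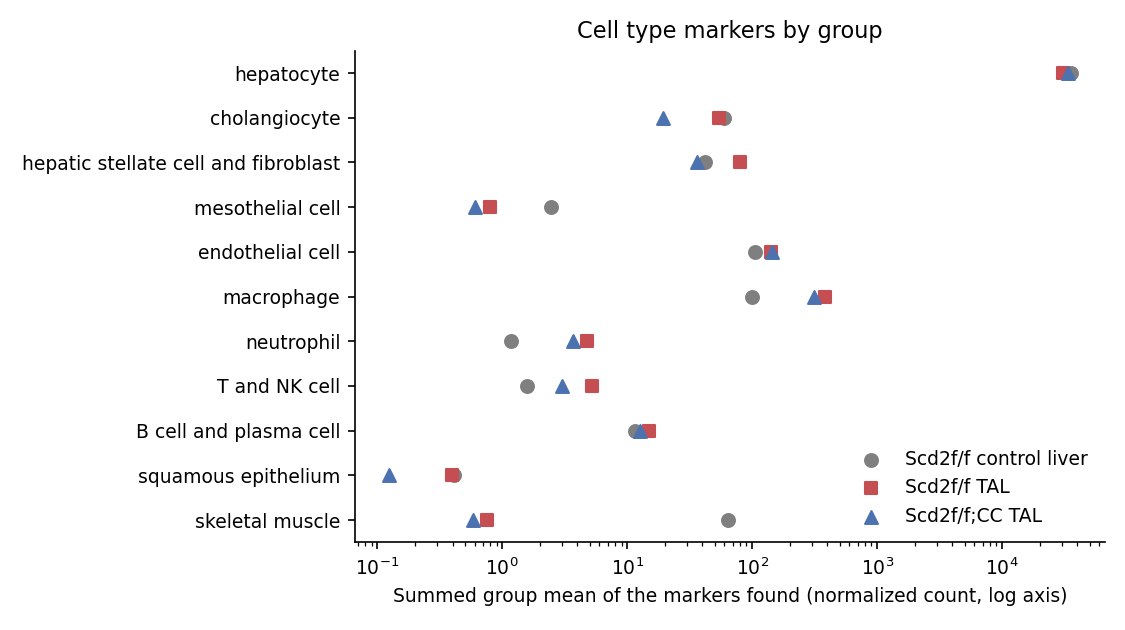
Summed group means of the markers of 11 cell types, as normalized counts on a log axis, in Scd2f/f control liver (grey circles), Scd2f/f TAL (red squares) and Scd2f/f;CC TAL (blue triangles). The macrophage sum is 99.4, 381 and 311, and the skeletal muscle sum is 63.7 in control liver against 0.753 and 0.588. The cholangiocyte sum is lowest in Scd2f/f;CC TAL at 19.2, of which Spp1 makes up 14.8.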

How the data were processed

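RNA from liver was prepared with a column kit and the authors sequenced its polyadenylated fraction on a NextSeq. The submitters' processing notes name STAR 2.6.1, Partek 6 and mm10. Gene counts were estimated by the authors with Partek's E/M method against Gencode and normalized to the upper quartile, and group means came from Partek Gene Specific Analysis. The E/M method assigns reads shared by overlapping or similar genes by estimation, so such genes are less certain. The signal used here is the least-squares mean of each group that the authors deposited, with 3 significant digits. The table of 16755 genes has 18 columns, and the 8 columns with the authors' own comparisons (p-value, FDR, ratio and fold change) were not used. Depth per sample is unknown, and no interval could be given.

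Quotients of means were computed without a pseudocount, and genes at least 2-fold apart were counted among the markers and among all genes. Exonic lengths and coordinates are from GENCODE M21 on GRCm38, while the study's methods name an earlier Gencode release for the counts. Both ends of 8 of the 9 markers matched the table within 10 bases, and Golm1 differed more. Promoter windows are from RefSeq on GRCm38.p6. The 13 pathway lists and the markers of cell types were matched by gene name. The text names all markers, up to 3 genes per list with the largest log2 quotient and a highest mean of at least 1, any gene that a count of 5 or fewer covers, and, for the markers with the widest range, the 3 nearest genes in the plane of both log2 quotients. Genes compared for nearness were the 12340 that were no marker and had a highest mean of at least 1. Zhx2, Epcam, Krt19, Top2a, Krt5, Sprr1a, Ly6c1, Igkc, Jchain, Wt1, Tat, Ttr, Acta2, Des, Myh4, Igf2 and the genes nearest to Gpc3 were named outside this rule after their values were seen. The members and lists were chosen with earlier results of these data known, and the skeletal muscle list was added after its transcripts had been seen. An item of the hepatocyte factor list is not reported here. The quotients and the 2-fold limit were checked on simulated means with large known changes and little noise. The other steps and the variation between mice were not simulated. Pseudocounts, fold limits, filters and centring were tried as alternatives. Python 3.11.15 was used with NumPy 2.4.6, pandas 2.3.3 and Matplotlib 3.10.9.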

Additional observations from a re-analysis of the deposited data

How the results depend on the processing

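The means were deposited per group, so no error, no test and no fit without 1 mouse could be had, and leaving out each replicate was not run. No paired analysis was possible because the table holds no values of single mice. A count or quotient was taken as moved when it changed by over 1.5-fold. With a pseudocount of 1 on each mean, 3 markers instead of 6 were at least 2-fold higher in Scd2f/f TAL than in control liver and 0 were lower, and against control liver Scd2f/f;CC TAL had 1 higher and 0 lower. Under the same pseudocount, the shares of all genes were 2.82% and 1.43% for Scd2f/f TAL, in place of 9.37% and 4.69%, and 1.58% and 1.28% for Scd2f/f;CC TAL, in place of 6.41% and 4.64%. A pseudocount of 0.1 and centring each left 5 higher in Scd2f/f TAL, without Afp. With a limit of 3-fold, the same 4 counts were 3, 0, 1 and 0. With a limit of 1.5-fold, 1 marker was higher and 6 were lower in Scd2f/f;CC TAL than in Scd2f/f TAL. The share of all genes was not taken at either of these limits, with a pseudocount of 0.1 or after centring. The marker counts under those settings therefore have no background, and nothing is read from them. When only genes with a highest mean of at least 1 were kept, which removes Mycn and Gpc3, the counts of lower markers against control liver were 0 for Scd2f/f TAL and 0 for Scd2f/f;CC TAL. Of all genes kept, 3.43% and 3.08% were lower in these comparisons. No log2 quotient of a marker changed sign under a pseudocount of 0.1 or 1 or under centring, which shifted the medians by at most 0.047. A pseudocount of 1 moved 7 of the 27 log2 quotients by over 1.5-fold, among them that of Gpc3 in Scd2f/f TAL over control liver, from 1.23 to 0.46, and that of Mycn, from -1.44 to -0.53, which is how a pseudocount acts on low means.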

Other observations

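The genes beside the markers on the chromosome were chosen after their values were seen and are given as values. Near Cd44, Slc1a2, a glutamate transporter, had normalized counts of 92.7 in control liver, 226 in TAL of Scd2f/f mice and 196 in TAL of Scd2f/f;CC mice, while Pdhx on the other side had 18.6, 15.2 and 16.2. Near Fam83a, Tbc1d31 had 2.89, 6.2 and 4.41 and Derl1 had 65.4, 60.9 and 59.4. Near Ly6d, Lynx1 had 0.574, 0.693 and 0.492. On the sides of Mycn, Fam49a had 2.59, 6.91 and 5.38 and Ddx1 had 37.5, 36.2 and 32.5. Near H19, Tnnt3, a troponin of fast skeletal muscle, had 7.85 in control liver and stood at the lowest mean in both TAL groups, and Mrpl23 had 7.71, 7.02 and 6.22.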
